A study of Mus musculus with 3 samples.

Results

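Erythroid cells of the mouse cochlea are described here as the barcodes in which at least 30% of the captured RNA molecules came from the 4 adult haemoglobin genes Hba-a1, Hba-a2, Hbb-bs and Hbb-bt, with at most 15% from mitochondrially encoded (mt-) genes and no lower limit on the number of genes. The members were chosen by this measured share, so the haemoglobin values themselves are given as a description. The rule found 1216 erythroid cells among 32657 cell barcodes, of which 15395 were within the mitochondrial limit. The data were 3 single-cell libraries made with the 10x Genomics 3′ v3.1 chemistry, in which each captured RNA molecule is counted once by its unique molecular identifier (UMI). They were 1 library from C57/B6 mice at postnatal day 14 (P14 replicate 1) and 2 libraries at P28 (replicates 1 and 2), each pooled from 14 cochleae of 7 mice. The labels name no treatment, transgene or sort, and the tissue was dissociated with collagenase. The P28 libraries came from separate pools of mice, and the labels give no sex. In total 10125255 UMIs were counted at P14 over 2513 barcodes, 35485894 in P28 replicate 1 over 11948 barcodes, and 37530956 in P28 replicate 2 over 18196.

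Red cells develop from progenitors that divide a few times while they begin to make haemoglobin, then leave the cell cycle, condense and expel the nucleus, and become reticulocytes. A reticulocyte has no nucleus, so it makes no new RNA, but it keeps ribosomes and long-lived mRNA for haemoglobin and a limited set of other proteins while ubiquitin-dependent degradation and autophagy clear its organelles. Haem, the iron-containing group of haemoglobin, is made partly in mitochondria, and ALAS2 is the erythroid enzyme of its first step.

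In the P14 library 365 of 2015 barcodes within the mitochondrial limit were erythroid, which was 18.1% (95% exact Clopper-Pearson interval 16.5 to 19.9). P28 replicate 1 had 312 of 5962, or 5.23% (4.68 to 5.83), and P28 replicate 2 had 539 of 7418, or 7.27% (6.69 to 7.88). These intervals cover counting error only. The share was higher in the P14 library than in either P28 library, and with 1 library at P14 the ages have no test. The number of erythroid cells in a preparation also depends on the blood left in the dissected tissue, which was not measured.

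The plot of the haemoglobin share per barcode shows a wide gap between low and high shares at P14 and a more filled one at P28. Of the P14 barcodes within the mitochondrial limit, 1641 had under 1% haemoglobin and 300 had 90% or more, and none lay from 1 to 10%. P28 replicate 1 had 41 barcodes from 1 to 5%, 15 from 5 to 10%, 9 from 10 to 20%, 0 from 20 to 25% and 2 from 25 to 30%. P28 replicate 2 had 22, 15, 20, 15 and 10 in these bins, so that there the shares ran without a break into the 7 members from 30 to 35%. The members just inside the limit had 30.1% haemoglobin with 1755 genes at P14, 31.5% with 2381 genes in P28 replicate 1 and 30.5% with 890 genes in P28 replicate 2. The barcodes just outside it had 29.7%, 26.2% and 29.8%. Between libraries, 10, 20 and 54 barcode sequences were shared, and 0 of them were erythroid in both libraries of a pair.

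**Figure D1:**
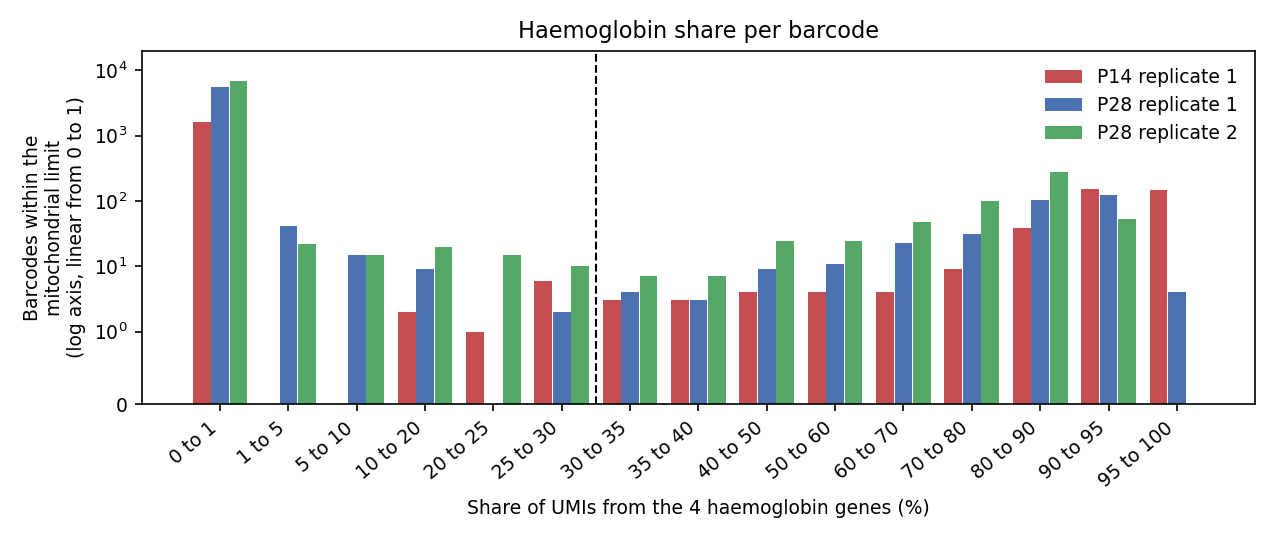
Number of barcodes within the mitochondrial limit (vertical axis, logarithmic above 1) by the share of UMIs from the 4 haemoglobin genes (horizontal axis, percent), with 1 bar for each library. The dashed line is the 30% limit of the rule. Most erythroid cells lie above 70%, and 145 barcodes at P14, 4 in P28 replicate 1 and 0 in P28 replicate 2 reach 95%.

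The erythroid cells had ordinary totals but few genes. The lowest, median and highest UMI totals were 506, 3294 and 8042 at P14, 516, 3002 and 14373 in P28 replicate 1, and 520, 2140 and 6614 in P28 replicate 2. Their median number of genes was 92 at P14, 137.5 in P28 replicate 1 and 162 in P28 replicate 2. A usual minimum of 200 genes per cell would therefore leave 39 of 365, 87 of 312 and 191 of 539 members. Haemoglobin took 90.9% of their UMIs at P14, 82.7% in P28 replicate 1 and 77.4% in P28 replicate 2, against 0.113%, 0.0865% and 0.218% of the UMIs of all other barcodes within the mitochondrial limit. The median mitochondrial share was 0.829% in the erythroid cells at P14, 4.63% in P28 replicate 1 and 6.60% in P28 replicate 2. In the other barcodes of the same libraries it was 6.32%, 10.0% and 10.9%, so the order of the libraries was the same inside and outside the erythroid cells.

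Beta globin took most of the haemoglobin RNA, and the alpha genes held 33.7% ± 4.77 at P14 (SD over 365 cells), 33.8% ± 4.96 in P28 replicate 1 (312 cells) and 34.5% ± 5.02 in P28 replicate 2 (539 cells). Of the alpha RNA, Hba-a1 made up 55.8%, 54.6% and 53.7%. Of the beta RNA, Hbb-bt made up 17.2%, 16.2% and 17.2%. These shares are a description, since the same genes chose the cells. Hba-a1 and Hba-a2 encode near-identical chains, as do Hbb-bs and Hbb-bt, so the counting can misplace reads within each pair. Of the embryonic genes, Hbb-bh1 and Hbb-bh2 had 0 UMIs in the erythroid cells of all 3 libraries, and Hba-x and Hbb-y had 1 UMI each in P28 replicate 1 and 0 in the others.

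The RNA left after the haemoglobin and mt- genes were taken out came to 93605 UMIs at P14, 119734 in P28 replicate 1 and 191777 in P28 replicate 2. All levels below are UMIs per 1000000 of these remaining UMIs (CPM) unless another scale is named. Members with 500 or more genes supplied a large part of it, with 37285 UMIs from 19 cells at P14, 69044 from 39 cells in P28 replicate 1 and 99142 from 74 cells in P28 replicate 2. The median erythroid cell held 128 remaining UMIs at P14, 160 in P28 replicate 1 and 186 in P28 replicate 2, whereas the median of the other barcodes was 2304, 2175.5 and 1785. The 50 most abundant genes took 37.9% of the remaining erythroid RNA at P14, 21.8% in P28 replicate 1 and 21.7% in P28 replicate 2, so the P14 profile was the most concentrated. The corresponding shares in other barcodes were 21.2%, 17.8% and 18.7%.

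Alas2 checks the label with a gene that the rule did not use. It stood at 19166 CPM in the erythroid cells at P14, 8076 in P28 replicate 1 and 5522 in P28 replicate 2, and at 3.96, 1.86 and 3.02 CPM in the other barcodes. All 3 erythroid sums lay far above all 3 sums of other barcodes. In the members with under 200 genes Alas2 was at 35539, 21211 and 11830 CPM, and in those with 500 or more genes at 2602, 1926 and 1886 CPM. The log2 fold change was 11.90 ± 0.50, where ± gives an approximate standard error (SE) taken from the F statistic of the test. Its p adjusted after Benjamini-Hochberg was 1.7e-118 (quasi-likelihood test of edgeR, with the erythroid sum above the other in 3 of 3 libraries). Cells with at least 100 remaining UMIs were thinned to that number, which left out 129 of 365 erythroid cells at P14, 69 of 312 in P28 replicate 1 and 38 of 539 in P28 replicate 2, so the thinned shares hold for the members richer in other RNA. Alas2 then had a UMI in 86.0% of 236 erythroid cells at P14, 65.02% of 243 in P28 replicate 1 and 54.1% of 501 in P28 replicate 2. Before thinning, the shares in these same cells were 95.8%, 83.1% and 79.6%, and over all members 91.2%, 80.8% and 78.5%. Thinned barcodes with at least 3 of 5 macrophage markers had none, 0 of 58 at P14, 0 of 248 in P28 replicate 1 and 0 of 267 in P28 replicate 2, with median depths of 4182.5, 2390 and 2170 UMIs against 3294, 3002 and 2140 over all erythroid cells. The exact upper limits of these shares were 6.16%, 1.48% and 1.37%, which bound the cells with an Alas2 UMI at this depth and cover counting error only.

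Across all genes, 13350 passed edgeR's expression filter, of which 416 (3.12%) were higher and 227 (1.7%) lower in the erythroid cells than in the other barcodes of the same libraries (adjusted p under 0.05). The median log2 fold change over the 13350 genes was -0.27, and without the TMM scaling it was -0.44, so changes are read relative to that shift. Of the 416 genes, 369 were higher in 3 of 3 libraries. They took 45.4% of the remaining erythroid RNA at P14, 17.2% in P28 replicate 1 and 13.3% in P28 replicate 2, against 3.98%, 3.16% and 3.09% in the other barcodes. The count of higher genes was 349 without P14, 214 without P28 replicate 1 and 311 without P28 replicate 2, and it was 144 when the library was not a term of the fit. In the erythroid lists described next, 0 listed genes were called lower, by edgeR or by DESeq2, and at an unadjusted p under 0.05 edgeR had 1 lower iron gene and 1 lower gene of energy metabolism. The lists were drawn up from known erythroid genes with earlier results of these data known. Their counts of higher genes, to be read beside the 3.12% over all genes, are therefore partly set by the choice and are a description.

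After Alas2, the largest increases came from genes known from red cells and from a few that are less familiar. Isg20, which encodes an exonuclease induced by interferon, was at 4904 CPM at P14, 1679 in P28 replicate 1 and 1314 in P28 replicate 2, against 2.81, 5.36 and 8.91 CPM in other barcodes (log2 fold change 8.80 ± 0.47, adjusted p = 1.56e-73 by edgeR, 3 of 3 libraries). Rec114, which encodes a protein needed for meiotic DNA breaks, was at 812, 443 and 433 CPM against 0.255, 0.412 and 0.814 CPM (10.10 ± 0.52). Gda, the guanine deaminase gene, was at 759, 543 and 542 CPM against 2.17, 0.577 and 1.87 CPM (8.96 ± 0.49). In each of these 3 genes the lowest erythroid library was above the highest library of other barcodes. The same held for the rest of the 15 genes with the largest increases, which include Alas2, Hbq1a, Apol11b, Epb42, Trim10, Slc4a1, Hbq1b, Kel, Rhd and Cldn13. The 15 genes were chosen for large increases shared by 3 libraries, so this separation is largely set by the choice and is a description. Rec114 and Gda passed the expression filter through the erythroid sums.

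The sequences before the start sites of Alas2, Kel and Rhd are shown because these genes had some of the largest increases and hold a match to the sites that the erythroid factors GATA1 and KLF1 are known to prefer. Capitals mark AGATAA or TGATAA and CACCC on either strand, and adjoining CACCC matches run together. The windows are the 150 bases before the annotated start, 5′ to 3′ on the gene's strand, from the RefSeq table for GRCm38.p6, and lie at chrX:150547267-150547416 on the plus strand, chr6:41704326-41704475 on the minus strand and chr4:134864386-134864535 on the plus strand.
Alas2: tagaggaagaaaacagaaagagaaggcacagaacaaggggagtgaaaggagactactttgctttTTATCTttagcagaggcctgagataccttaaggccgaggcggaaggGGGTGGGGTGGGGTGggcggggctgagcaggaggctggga
Kel: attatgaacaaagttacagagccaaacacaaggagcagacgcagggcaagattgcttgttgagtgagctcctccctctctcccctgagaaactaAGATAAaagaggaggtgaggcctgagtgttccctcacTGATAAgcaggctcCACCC
Rhd: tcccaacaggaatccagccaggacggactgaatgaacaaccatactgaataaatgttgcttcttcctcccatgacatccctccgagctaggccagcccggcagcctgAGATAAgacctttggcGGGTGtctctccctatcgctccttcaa
Of the 15 genes with the largest increases, 11 had a window in the table, and 4 of these 11 (36.4%; the 3 above and Apol11b) held AGATAA or TGATAA in the 150 bases, against 9.91% of the windows of 27025 genes. CACCC was in 6 of the 11 (54.5%), against 36.9% of all. In the whole window of the table, which runs from 250 bases before to 50 after the start, the shares were 54.5% against 19.0% for AGATAA or TGATAA and 54.5% against 56.7% for CACCC. The matches describe letters in the reference and no binding was measured.

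**Figure D2:**
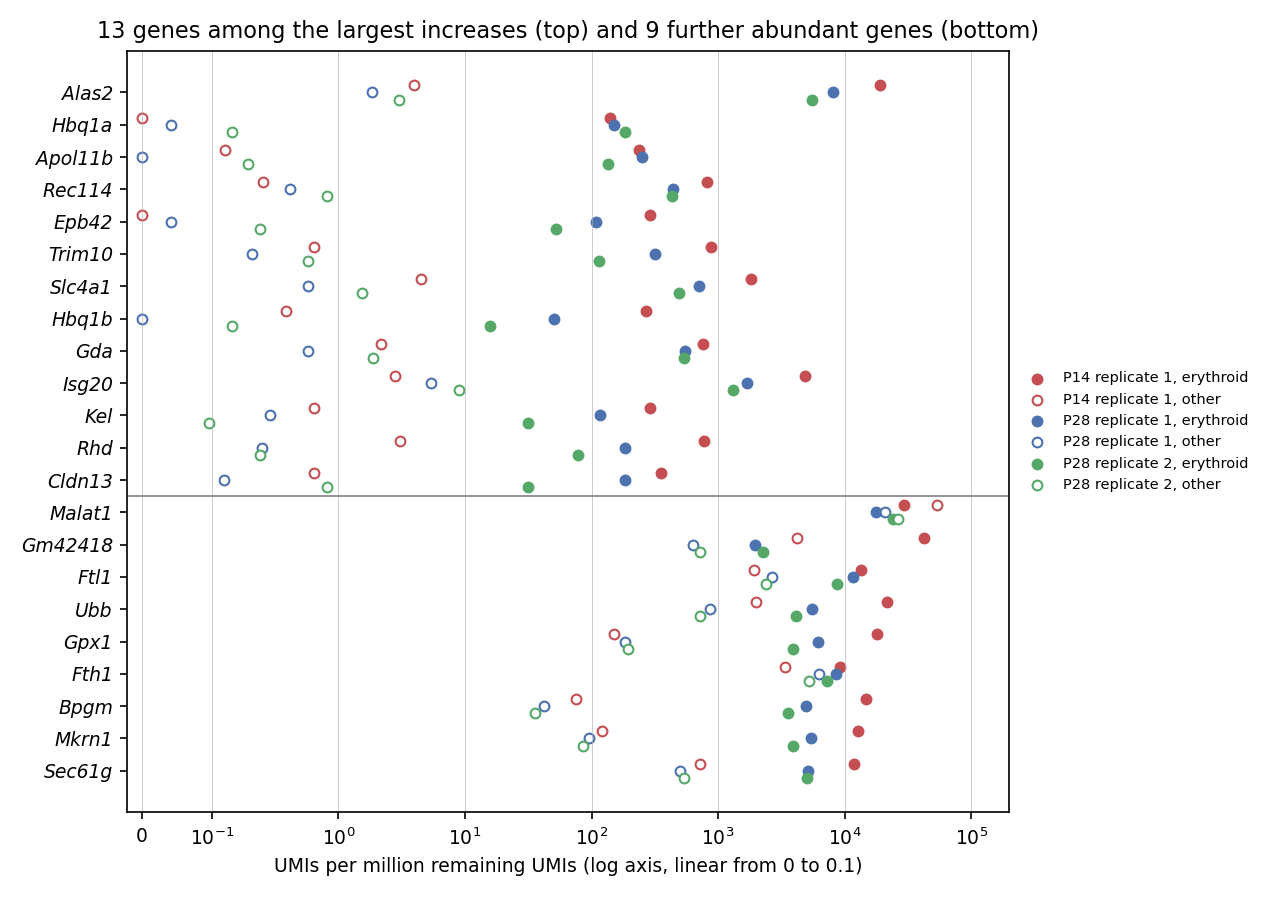
Level in CPM (horizontal axis, logarithmic above 0.1) of 13 of the 15 genes with the largest increase and, under the grey line, 9 further genes among the 10 most abundant in the erythroid cells. Filled points are erythroid cells and open points the other barcodes, in 3 colours for the 3 libraries. For the upper genes all filled points lie to the right of all open points, which is largely set by how these genes were chosen. For Malat1 each filled point lies to the left of the open point of the same library.

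All 8 listed enzymes of haem synthesis were higher (8 of 8 tested, median log2 fold change 3.20 against -0.27 over all genes). Of these 8 calls, 5 remained in members with fewer than 500 genes and 3 with no replicate block for the library. Fech, which inserts the iron into the ring, was at 2457 CPM at P14, 1520 in P28 replicate 1 and 1178 in P28 replicate 2, against 47.0, 55.1 and 57.0 CPM (log2 fold change 5.14 ± 0.40, adjusted p = 5.77e-35 by edgeR, 3 of 3 libraries). The smallest increase of the list was that of Ppox, the next to last enzyme, at 214, 100 and 57.4 CPM against 20.1, 33.3 and 29.5 CPM (2.21 ± 0.43).

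Of 16 iron genes 7 were higher and 0 lower (median log2 fold change 1.33). Slc25a37, the mitochondrial iron importer mitoferrin 1, was at 1870 CPM at P14, 1244 in P28 replicate 1 and 1627 in P28 replicate 2, against 33.1, 52.9 and 50.03 CPM (log2 fold change 5.32 ± 0.40, adjusted p = 1.04e-36 by edgeR, 3 of 3 libraries). The 3 erythroid levels were all far above those of the other barcodes. Ncoa4, the receptor that takes ferritin to autophagy, rose by a log2 fold change of 3.95 ± 0.39, and the ferritin light chain Ftl1 by 2.44 ± 0.34. The ferritin heavy chain Fth1 had 9134, 8611 and 7243 CPM against 3384, 6278 and 5246 CPM and missed the threshold (0.97 ± 0.32, adjusted p = 0.056 by edgeR, higher in 3 of 3 libraries). Tfrc, the transferrin receptor by which developing red cells take up iron, was called (1.78 ± 0.44), but its level was high only at P14, at 1026 CPM against 30.1, and was 109 against 127 and 141 against 113 CPM in the P28 libraries. Without P14 its log2 fold change was 0.26 (adjusted p = 0.878 by edgeR). Slc40a1, the iron exporter, was called on 5, 5 and 3 UMIs and its direction turned when the reference was the barcodes with macrophage or B lineage markers (-1.43).

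Of 22 genes of the red cell membrane and its skeleton 15 were higher and 0 lower (median log2 fold change 2.72). Slc4a1, the anion exchanger band 3, was at 1827 CPM at P14, 710 in P28 replicate 1 and 495 in P28 replicate 2, against 4.47, 0.577 and 1.53 CPM (log2 fold change 9.22 ± 0.49, adjusted p = 5.95e-75 by edgeR, 3 of 3 libraries). The blood group genes were higher too, with a log2 fold change of 8.70 ± 0.50 for Rhd, 7.999 ± 0.76 for Rhag and 8.79 ± 0.65 for Kel. Sptb, the beta spectrin of red cells, had 182, 125 and 73.0 CPM against 135, 104 and 83.9 CPM and did not pass (0.36 ± 0.38, adjusted p = 0.837 by edgeR). Add2 and Stom lost their calls without P14 (log2 fold changes of 0.61 and 1.13), and Cd47, the signal by which red cells avoid being eaten, lost its call without any 1 of the 3 libraries (0.53 to 1.59).

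Genes for the removal of proteins and organelles were prominent in the remaining RNA. Of 17 tested genes of the ubiquitin system and of organelle clearance 13 were higher and 0 lower (median log2 fold change 3.07). Together the 18 listed genes held 60809 CPM at P14, 23602 in P28 replicate 1 and 18198 in P28 replicate 2, against 3954, 2597 and 2321 CPM. Ubb, a polyubiquitin gene, was the most abundant member in all 3 libraries, at 21687, 5529 and 4130 CPM. Mkrn1, a ubiquitin ligase, was at 12766, 5395 and 3895 CPM against 121, 96.4 and 85.4 CPM (log2 fold change 6.20 ± 0.40, adjusted p = 2.95e-50 by edgeR, 3 of 3 libraries). Ube2l6, a conjugating enzyme for ISG15 and ubiquitin, was at 4166, 2506 and 1789 CPM against 4.98, 21.3 and 16.5 CPM (7.85 ± 0.45). Ube2o, which tags ribosomal proteins for degradation in reticulocytes, rose by 4.54 ± 0.41 and Bnip3l, the receptor for mitochondrial autophagy in reticulocytes, by 3.67 ± 0.37 on the log2 scale. Fbxo7 was called at 1.57 ± 0.52 and missed the threshold under most other settings, including without each library in turn.

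Of 20 tested enzymes of red cell metabolism 7 were higher, 0 were lower and 13 were not called, and the median log2 fold change of the list was -0.01. Bpgm, which makes the 2,3-bisphosphoglycerate that lowers the oxygen affinity of haemoglobin, was at 14743 CPM at P14, 4944 in P28 replicate 1 and 3567 in P28 replicate 2, against 74.8, 42.0 and 36.1 CPM (log2 fold change 7.23 ± 0.42, adjusted p = 8.24e-63 by edgeR, 3 of 3 libraries). Gpx1, a glutathione peroxidase, was at 18087, 6147 and 3921 CPM against 150, 183 and 195 CPM (5.59 ± 0.40). The other genes called were Blvrb, Gclm, Car2, Prdx2 and Cat, which encode biliverdin reductase B, a subunit of the enzyme of glutathione synthesis, carbonic anhydrase 2, peroxiredoxin 2 and catalase. The glycolytic gene Gapdh had 299, 727 and 949 CPM against 981, 947 and 848 CPM (-0.41 ± 0.35, adjusted p = 0.752 by edgeR). Car1, a carbonic anhydrase of mature red cells, had 0, 1 and 1 UMIs and was not tested.

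Of 20 further genes known from late erythroid cells 15 were higher and 0 lower (median log2 fold change 3.16). Tent5c, a cytoplasmic poly(A) polymerase, was at 3579 CPM at P14, 1570 in P28 replicate 1 and 1799 in P28 replicate 2, against 18.6, 18.4 and 15.8 CPM (log2 fold change 7.13 ± 0.43, adjusted p = 2.23e-57 by edgeR, 3 of 3 libraries). Rsad2, better known as the interferon-induced gene for viperin, was at 2297, 743 and 678 CPM against 0.894, 4.78 and 7.47 CPM (8.14 ± 0.47). Hemgn, a nuclear gene of erythroid differentiation, rose by 7.88 ± 0.47. The theta globin genes Hbq1a and Hbq1b, which are near-identical copies and so uncertain as single genes, had 13, 18 and 35 UMIs and 25, 6 and 3 UMIs in the erythroid cells. They made up the 2 tested members of the minor globins and both were higher.

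Erythroid transcription factors were detected at low levels. Of 12 listed, 9 could be tested and 6 were higher, with 0 lower (median log2 fold change 2.66). Klf1, the factor that drives adult beta globin, was at 267 CPM at P14, 117 in P28 replicate 1 and 10.4 in P28 replicate 2, against 2.30, 0.990 and 1.05 CPM (log2 fold change 6.32 ± 0.59, adjusted p = 7.34e-24 by edgeR, 3 of 3 libraries). In P28 replicate 2 its level rested on fewer than 3 UMIs, since 3 counts make 15.6 CPM there. Lmo2, a partner of GATA1 in its complex, was at 620, 242 and 104 CPM against 10.7, 16.2 and 17.5 CPM (4.33 ± 0.41). Gata1 itself had 5, 8 and 0 UMIs and was not tested, and Myb, a factor of early progenitors, had 0 UMIs in all 3 libraries, which allows up to 32.0, 25.1 and 15.6 CPM at 3 counts. Klf1 had 617, 188 and 20.2 CPM in the members with 500 or more genes and 0 UMIs in those with under 200 genes in all 3 libraries. Without the members of 500 or more genes, 3 of 7 tested factors were called by edgeR.

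Ribosomal protein genes took a slightly smaller share of the remaining RNA in the erythroid cells than in other barcodes in all 3 libraries. They took 10.1% at P14, 14.4% in P28 replicate 1 and 15.7% in P28 replicate 2, against 10.6%, 15.7% and 16.5% in other barcodes. The 95% Poisson interval of each erythroid sum, which covers counting error only, lay below the level of the other barcodes. At P14 the share was 16.6% in the 10 cells from 30 to 50% haemoglobin. It was 8.62% from 50 to 70%, 8.91% from 70 to 90% and 7.87% at 90% or more. In both P28 libraries these bins differed less. Of 86 ribosomal protein genes tested, 0 were called in either direction by edgeR or by DESeq2. At an unadjusted p under 0.05 both had 2 higher and 0 lower (median log2 fold change 0.0044 in edgeR). Malat1, a long RNA that stays in the nucleus, had the highest mean level of the 3 erythroid sums. Its level was 29464 CPM at P14, 17840 in P28 replicate 1 and 24226 in P28 replicate 2, against 53410, 20871 and 26621 CPM (log2 fold change -0.21 ± 0.31, adjusted p = 0.909 by edgeR, lower in 3 of 3 libraries). Of the 4 nuclear-retained RNAs listed, 1 (Meg3, -1.94 ± 0.41) was lower. Meg3 lost its call without P28 replicate 1 (-1.53, adjusted p = 0.667 by edgeR) and without P28 replicate 2 (-1.86, adjusted p = 0.140 by edgeR). It also lost it with no replicate block (-2.03, adjusted p = 0.346 by edgeR). In these fits the fold change stayed large, whereas with barcodes of at most 3000 genes and 15000 UMIs it came to -0.20 and was not called. With members of 500 or more genes left out, 3 of the 4 were lower, and Malat1 came to -1.23 (adjusted p = 0.0233 by edgeR) and Meg3 to -3.54.

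**Figure D3:**
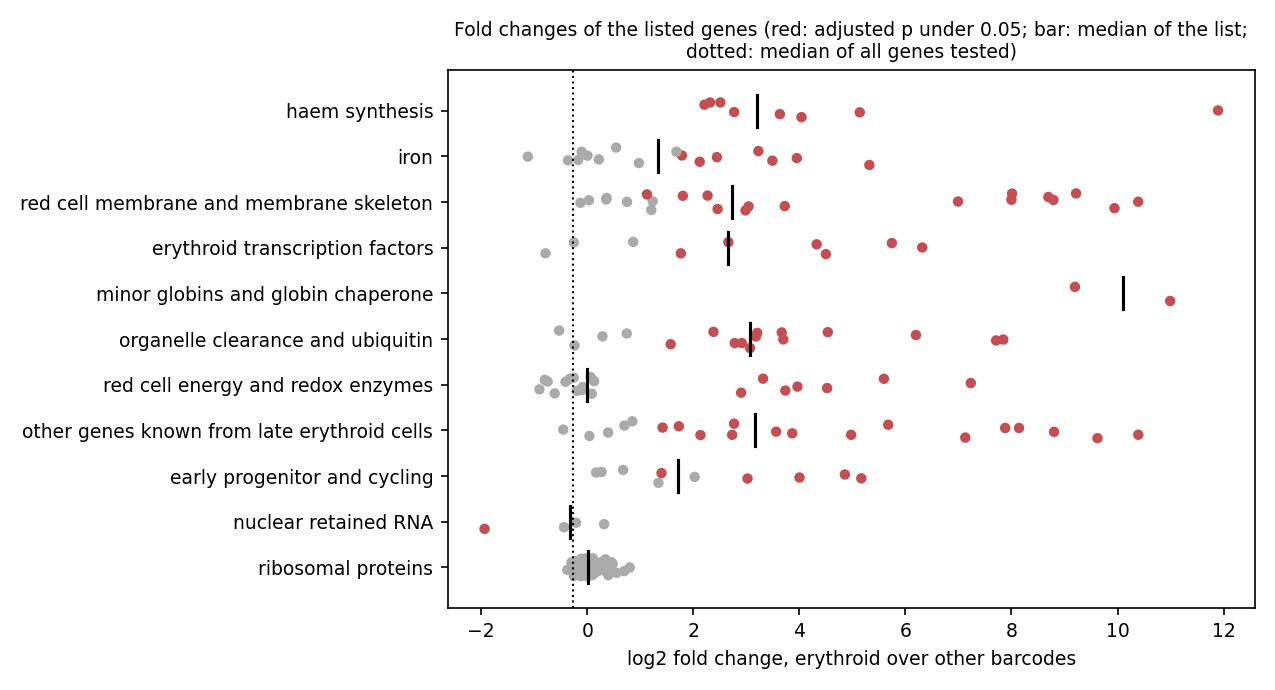
Log2 fold change of each tested gene (points) between erythroid cells and other barcodes, by gene list. Red points had an adjusted p under 0.05 in edgeR, black bars are the median of a list and the dotted line is the median of all 13350 genes tested. All 8 haem synthesis genes are red, and none of the 86 ribosomal protein genes is.

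The erythroid cells were not uniform. Ordered by haemoglobin share, the P14 library had 10 cells from 30 to 50%, 8 from 50 to 70%, 47 from 70 to 90% and 300 at 90% or more. P28 replicate 1 had 16, 34, 133 and 129 cells in these bins and P28 replicate 2 had 38, 72, 376 and 53. The median number of genes fell with the share, from 1115 in the lowest bin to 89 in the highest at P14, from 1049 to 126 in P28 replicate 1 and from 867.5 to 121 in P28 replicate 2. Since haemoglobin share and the other RNA of a cell are parts of the same total, a lower number of genes at a higher share is partly built into the measure. In the highest bin the median remaining RNA was nearly the same in the 3 libraries, at 121, 142 and 127 UMIs per cell.

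Haem synthesis and organelle clearance made up more of the remaining RNA as the haemoglobin share rose, in every library. RNA from other sources in a barcode lowers both the haemoglobin share and these levels. The rise is therefore partly built into the bins and is a description. Haem synthesis went from 7186 CPM in the lowest to 41481 CPM in the highest bin at P14, from 2357 to 30396 in P28 replicate 1 and from 1981 to 22422 in P28 replicate 2. The organelle clearance list went from 5120 to 104283, from 5646 to 67376 and from 5161 to 58272 CPM. Per 10000 haemoglobin UMIs, both lists were lower in the highest than in the lowest bin, which is partly built into a ratio to haemoglobin over bins of the haemoglobin share. Haem synthesis went from 108.1 to 19.5 UMIs at P14, from 30.5 to 14.7 in P28 replicate 1 and from 24.9 to 13.4 in P28 replicate 2. Organelle clearance went from 73.1 to 32.6 in P28 replicate 1 and from 64.8 to 34.8 in P28 replicate 2, but at P14 it was higher in both middle bins than in the lowest, with 77.0, 108.4, 89.1 and 48.9 from the lowest to the highest bin. Malat1 was lowest in the highest bin of every library, and fell at every step in P28 replicate 2 alone. From the lowest to the highest bin it had 37013, 53251, 58254 and 7464 CPM at P14, 18226, 30364, 14844 and 4485 in P28 replicate 1, and 38055, 31373, 10531 and 7474 in P28 replicate 2. Per haemoglobin RNA, Alas2 changed little over the bins of P28 replicate 1, with 11.7, 10.4, 12.9 and 12.3 UMIs per 10000 haemoglobin UMIs from the lowest to the highest bin. At P14 these values were 26.1, 16.7, 14.8 and 17.2, and in P28 replicate 2 they were 17.1, 12.5, 10.9 and 11.2, with the highest value in the lowest bin of both libraries. The bins below 70% at P14 hold under 20 cells each.

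The RNA of genes of dividing cells came mostly from a few gene-rich members. Of the 10 listed genes of early progenitors and cell division 5 were higher (Mki67, Ccna2, Top2a, Hmgb2 and Pcna) and 0 lower. Mki67, the proliferation marker, was at 716 CPM at P14, 192 in P28 replicate 1 and 41.7 in P28 replicate 2, against 26.1, 2.19 and 3.88 CPM (log2 fold change 5.17 ± 0.43, adjusted p = 5.11e-30 by edgeR, 3 of 3 libraries). Its 67, 23 and 8 UMIs came from 14 of 365, 4 of 312 and 3 of 539 cells. The list stood at 9655 CPM in the members with 500 or more genes at P14 (19 cells), 2679 in P28 replicate 1 (39 cells) and 1079 in P28 replicate 2 (74 cells). At least 3 genes of the list were present together in 11 of these 19, 6 of these 39 and 3 of these 74 cells, and in 0 members with fewer genes. When members with 500 or more genes were left out, 0 genes of the list were called by edgeR (1 at an unadjusted p under 0.05), while 241 genes in all were higher, of which 226 were among the 416. Haem synthesis then had 5 of 8 genes called. Pcna was called at 1.40 ± 0.42 and came to -0.076 without these members.

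**Figure D4:**
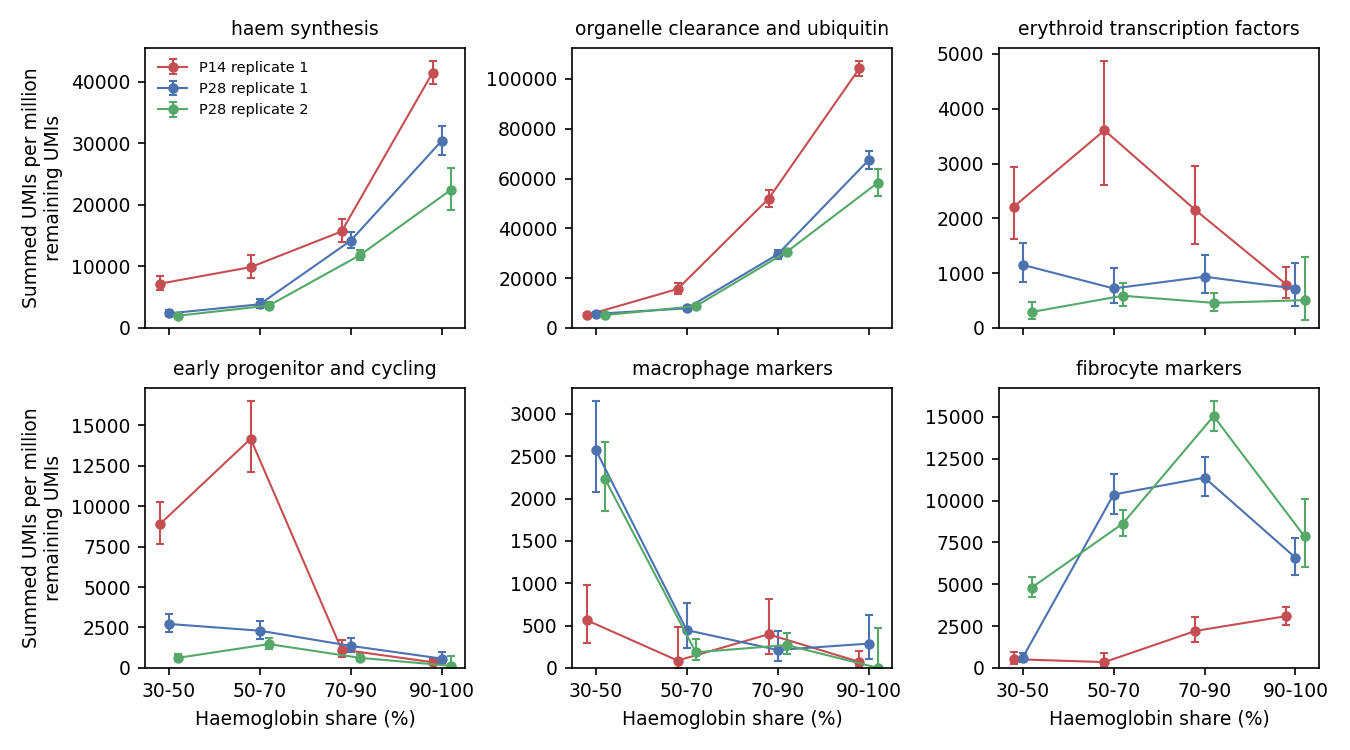
Summed CPM of 6 gene lists (vertical axes) in 4 bins of the haemoglobin share (horizontal axes, percent), by library, with 95% Poisson intervals that cover counting error only. Haem synthesis and organelle clearance are highest at 90 to 100% in all 3 libraries, the cycling list is highest at 30 to 70% at P14, and the macrophage markers are highest at 30 to 50% in the P28 libraries.

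Markers of other cells were read in the same sums, since free RNA or another cell in the droplet adds to the RNA of a barcode, and their part in the results was not tested. Markers of the neutrophil lineage, which matures beside red cells in bone marrow, had 0, 3 and 10 UMIs over 7 genes (0, 25.1 and 52.1 CPM against 829, 81.5 and 1222 CPM). S100a9 had 2 UMIs in P28 replicate 1, and S100a8 and S100a9 had 4 each in P28 replicate 2. Of 6 tested, 4 were lower in edgeR (S100a8, S100a9, Ngp and Camp) and 2 in DESeq2. These 4 genes had at most 4 UMIs each in an erythroid sum and passed the expression filter through the other barcodes. Their calls therefore add nothing to the counts. The 5 T cell markers had 0, 0 and 1 UMI. All 5 outer hair cell markers were lower in edgeR and 1 of 5 in DESeq2, with a summed level of 1709, 2272 and 1163 CPM against 13194, 4330 and 2883 CPM, and Ocm was the most abundant at P14 and Pcp4 at P28. At P28, 220 of their 272 UMIs in replicate 1 lay in the 16 cells from 30 to 50% haemoglobin and 159 of 223 in replicate 2 lay in the 38 cells of that bin, whereas at P14 110 of 160 lay in the 300 cells at 90% or more. All 4 spiral ganglion neuron markers were lower in edgeR, 3 of 4 in DESeq2 and 1 of 4 in edgeR without the members of 500 or more genes, at 32.0, 384 and 381 CPM in sum against 238, 2298 and 1920 CPM. Of these markers, Tubb3, Nefl and Snap25 had 0 UMIs in the erythroid cells at P14 and could pass the expression filter only with the other barcodes. Their calls therefore add nothing to the counts either. Over all genes tested, edgeR called 1.7% lower.

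Of the 3 fibrocyte markers 1, Otos, was higher and the others, Coch and Otor, were not called. Their 3 genes summed to 1998 CPM at P14, 7007 in P28 replicate 1 and 9986 in P28 replicate 2, against 1277, 3207 and 4117 CPM. Otos, the fibrocyte gene for otospiralin and the most abundant of the 3, was at 1538, 3566 and 6883 CPM against 448, 960 and 1401 CPM (log2 fold change 2.18 ± 0.34, adjusted p = 1.31e-08 by edgeR, 3 of 3 libraries). The 5 cells with the most Otos held 50% of its UMIs at P14, 42.2% in P28 replicate 1 and 27.7% in P28 replicate 2. Coch was at 246, 3032 and 2852 CPM against 617, 1611 and 2067 CPM, below the other barcodes at P14 and above them at P28. In the highest haemoglobin bin the fibrocyte list still held 3092, 6585 and 7854 CPM. Macrophage markers summed to 246, 1002 and 798 CPM against 812, 502 and 440 CPM over 8 genes, with 0 of 8 called by edgeR or DESeq2 (1 and 2 of them higher at an unadjusted p under 0.05), and C1qa or Tyrobp was the most abundant. Csf1r had 0 UMIs at P14. Of their 120 UMIs in P28 replicate 1, 94 lay in the 16 cells from 30 to 50% haemoglobin, and of their 153 UMIs in P28 replicate 2, 123 lay in the 38 cells of that bin. At least 3 of 5 macrophage markers were carried by 1, 2 and 5 members. Among the B lineage markers Ebf1 was the most abundant, with 47, 85 and 152 UMIs, Ms4a1 was at 0 in all 3 libraries, and the list was at 897, 743 and 808 CPM against 1504, 1093 and 1110 CPM. Of the 6 B lineage genes tested 0 were higher and 1, Ighm, was lower in edgeR, with 0 lower in DESeq2 (1 at an unadjusted p under 0.05).

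Among the genes called lower, the 10 named by their fitted fold changes were Camp, Rap1gap, Scn1a, Hecw1, Hspa12a, Tmem170b, Lgi2, Lrrc4b, Brsk2 and Zfp804a. All 10 had 0 UMIs in the erythroid cells and passed the expression filter through the other barcodes, so their order carries no meaning and only bounds can be given. Camp, the neutrophil gene for cathelicidin, was at 62.5 CPM in the other barcodes at P14 and 100.9 CPM in P28 replicate 2. Against a floor of 3 counts per library it was at least 1.95-fold and 6.45-fold lower in the erythroid cells there, and in P28 replicate 1 both groups were under the floor of 25.1 CPM. Rap1gap, a gene for a regulator of the RAP1 GTPase, was at 57.3 and 51.5 CPM in the other barcodes at P28, at least 2.29-fold and 3.29-fold lower in the erythroid cells. Of the 227 lower genes, 65 had at most 3 UMIs in all erythroid sums. The number of lower genes depended on single libraries. It was 311 without P14, 10 without P28 replicate 1 and 35 without P28 replicate 2.

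The last comparison is between the ages. With 1 library at P14 it has no test, and a gene was counted where its P14 level was at least 2-fold from both P28 levels and its 95% Poisson interval overlapped neither. Of 6221 genes with at least 10 UMIs, 163 (2.62%) were higher and 229 (3.68%) lower in the erythroid cells at P14. Among the 416 genes that were higher in erythroid cells than in other barcodes, 136 were higher at P14 by this rule and 2 lower. The P14 library took part in calling the 416 genes, of which 253 were also called without it, so the excess at P14 is partly set by the choice of genes and is a description. Over the 385 of them with a UMI in all 3 libraries, the median log2 ratio of P14 to P28 was 1.62 per remaining UMI and 0.63 per haemoglobin UMI. Over the 7300 tested genes with a UMI in all 3 libraries, these medians were -0.46 and -1.46. The haemoglobin share was also highest at P14, and its part in these ratios was not tested.

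Per 10000 haemoglobin UMIs, Alas2 had 17.1 UMIs at P14, 12.3 in P28 replicate 1 and 11.4 in P28 replicate 2. Bpgm had 13.1, 7.56 and 7.38, Gpx1 had 16.1, 9.40 and 8.11, and Ubb had 19.3, 8.45 and 8.55. For these 4 genes both P28 libraries lay below P14 on both scales. Slc25a37 had 1.67, 1.90 and 3.37 per 10000 haemoglobin UMIs and Ftl1 had 11.9, 17.8 and 17.9, so these 2 iron genes were lowest at P14 on this scale. In CPM the order turned, since Ftl1 was highest at P14 (13343, 11659 and 8661 CPM), as was Slc25a37. In cells with 90% haemoglobin or more, Alas2 was at 36668, 25433 and 18748 CPM, in the same order as over all members.

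**Figure D5:**
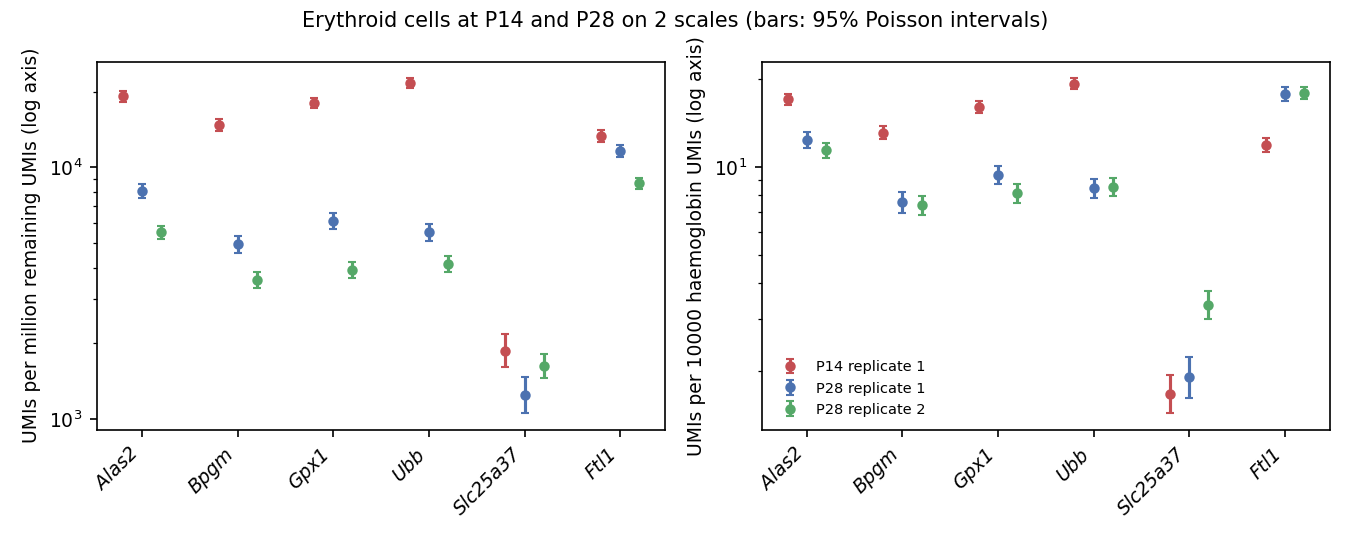
Levels of 6 genes in the erythroid cells of the 3 libraries, in CPM (left, log axis) and per 10000 haemoglobin UMIs (right, log axis), with 95% Poisson intervals that cover counting error only. Alas2, Bpgm, Gpx1 and Ubb are highest at P14 on both scales, while Slc25a37 and Ftl1 are highest at P14 on the left and lowest at P14 on the right.

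The genes named for the largest differences towards P14, histone genes among them, were also highest at P14 outside the erythroid cells. Hist1h2ap, a replication-dependent histone H2A gene, was at 7606 CPM (95% interval 7058 to 8186) at P14, 58.5 (23.5 to 120) in P28 replicate 1 and 52.1 (25.005 to 95.9) in P28 replicate 2, against 296, 0.742 and 5.75 CPM in other barcodes. Hist2h2ac and Hist1h2bb had 35 and 25 UMIs at P14 and 0 in both P28 libraries, and in other barcodes Hist2h2ac was at 16.5, 1.40 and 1.82 CPM and Hist1h2bb at 4.98, 0.289 and 0.335 CPM. A further H2A gene, Hist1h2ae, looked at after its values were seen, had 75% of its 344 P14 UMIs in 5 cells. Xist, the RNA of the inactive X chromosome in females, was at 481 CPM at P14 and had 0 UMIs at P28, and in the other barcodes it was at 397, 0.289 and 0.383 CPM, so the libraries differ in the same way outside the erythroid cells and sex cannot be told apart from age here. AY036118, at 4060, 41.8 and 41.7 CPM, and Gm42418, at 42241, 1954 and 2284 CPM, overlap ribosomal RNA repeats, and in the other barcodes they were also highest at P14, with 316, 10.4 and 11.3 CPM and 4169, 638 and 720 CPM.

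Towards P28 the largest differences among genes with 200 CPM or more in both P28 libraries were those of Ptgds, Ifi27l2a, Cystm1, Map1b and Gpx3. Ptgds, the prostaglandin D synthase gene, had 85.5 CPM (36.9 to 168) in the erythroid cells at P14, 6172 (5735 to 6634) in P28 replicate 1 and 11513 (11038 to 12004) in P28 replicate 2, against 486, 2012 and 3750 CPM in the other barcodes. In P28 replicate 1, 47.8% of its 739 UMIs lay in 5 cells, which the Poisson interval does not reflect. In P28 replicate 2 they were more spread, with 16.6% of 2208 UMIs in 5 cells and a UMI in 419 of 539 cells. Ifi27l2a, Cystm1, Map1b and Gpx3 each had 1 UMI in the erythroid cells at P14 and from 30 to 117 UMIs in a P28 library. In the other barcodes Ifi27l2a, Map1b and Gpx3 were higher at P28 too, while Cystm1 was at 338, 292 and 252 CPM. The counts of genes by age were 307 higher and 496 lower when P28 replicate 1 was left out, and 181 and 319 when P28 replicate 2 was.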

How the data were processed

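The authors deposited, for each library, UMI counts per gene and barcode, made with Cell Ranger (5.0.1 in the file headers, 6.0.1 in the submitters' processing notes, which also name mm10) and neither normalized nor filtered further. The members, the gene lists and the tests were chosen with earlier results of these data known. No doublet caller was run.

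UMIs were summed per library over erythroid cells and over all other barcodes with at most 15% mt- UMIs. The 4 haemoglobin and 13 mt- genes were taken out, and the 3 sums were compared with the 3 others in edgeR 4.0.16 (R 4.3.3), with TMM scaling, its expression filter, a term for the library, the quasi-likelihood test and Benjamini-Hochberg adjustment at 0.05. The libraries pair the sums, since both sums of a pair come from 1 library, and their deviations correlated by 0.238, 0.132 and 0.195. The SE of a fold change is its absolute value divided by the square root of the F statistic of this test. The test was tried first on simulated data with 200 genes changed. Shares of cells used cells thinned to 100 remaining UMIs, without those that had fewer. Comparison barcodes carried at least 3 of 5 macrophage, 2 of 4 B lineage or 3 of 5 outer hair cell markers. Intervals are 95% exact Poisson or Clopper-Pearson, and a count of 0 was bounded at 3 counts.

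Genes are named by a fixed rule: the 4 haemoglobin genes and Alas2, the genes of the lists, the 15 highest and 10 lowest log2 fold changes among genes with 30 UMIs or more whose direction was shared by 3 libraries, the 10 most abundant genes, and the 5 with the largest difference between P14 and the nearer P28 library in each direction with 200 CPM or more at the higher age. A pseudocount of 1 CPM was used for that ranking. The listed genes Ahsp and Aldoa were not analysed here, and some named genes are counted in the lists but not reported here. The alternatives were DESeq2 1.42.0, other filters, limits and references, each library left out, no library term, and, chosen after the data were seen, no TMM scaling and members with fewer than 500 genes. Python 3.11.15, numpy 2.4.6, scipy 1.17.1, pandas 2.3.3 and matplotlib 3.10.9 were used.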

Additional observations from a re-analysis of the deposited data

Results flagged for a closer look

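Among the named genes, 7 were found in which the erythroid level lay below the level of other barcodes at P14 and above it in both P28 libraries, with no overlap of the counting intervals. With 1 library at P14 the difference between the ages was not tested. As ratios of the erythroid to the other level at P14, in P28 replicate 1 and in P28 replicate 2, Ptgds had 0.176, 3.07 and 3.07, and Ifi27l2a had 0.163, 2.10 and 2.31. The macrophage gene C1qa had 0.270, 2.19 and 1.70, and C1qc had 0.0690, 2.14 and 1.72. The platelet gene Pf4 had 0, 6.09 and 2.17, while 0 of the 2 platelet markers tested were called by edgeR or DESeq2 (1 and 0 higher at an unadjusted p under 0.05) and Ppbp, Gp9, Gp1bb and Tubb1 had 0 UMIs in the erythroid cells of all 3 libraries. The myelin gene Mbp had 0.490, 1.87 and 5.65. Coch, a gene of cochlear fibrocytes, had 0.398, 1.88 and 1.38. Of the 30 UMIs of platelet markers in P28 replicate 1, all 30 lay in the 16 cells from 30 to 50% haemoglobin.

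A further signal lay in barcodes outside the comparisons. The haemoglobin-rich barcodes above the mitochondrial limit, 3 at P14, 50 in P28 replicate 1 and 201 in P28 replicate 2, held Alas2 at 8772 CPM (95% Poisson interval 2848 to 20471), 5429 CPM (3929 to 7312) and 2904 CPM (2428 to 3446). The other barcodes above that limit held 6.29, 2.76 and 3.35 CPM. The median haemoglobin shares of the haemoglobin-rich barcodes above the limit were 65.05%, 61.3% and 58.6%.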

How the results depend on the processing

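The 416 higher and 227 lower genes became 151 and 9 with at least 10 UMIs in every sum (944 genes tested), 144 and 2 with no replicate block for the library pairing, 241 and 78 with members of fewer than 500 genes, and 272 and 170 against macrophage and B lineage barcodes (5931 genes tested). The lower genes became 44 with at most 3000 genes and 15000 UMIs, and 47 in DESeq2. Leaving out each library gave 214 to 349 higher and 10 to 311 lower genes, with the low ends without P28 replicate 1. With no replicate block the calls were 3 of 8 in haem synthesis, 9 of 22 in the membrane list and 4 of 9 transcription factors. No paired analysis of the ages was possible because the replicate numbers mark separate pools of mice. The no-TMM fit gave 349 and 278, so the share of higher among all calls went from 64.7% to 55.7%. The erythroid cells numbered 1429 at a mitochondrial limit of 30% and 317 with at least 200 genes. Genes higher at P14 became 105 at 3-fold. Leaving out each P28 library gave 181 to 307 higher and 319 to 496 lower at P14.

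Of 1474 repeated values of 97 named genes, 1304 kept the call or its absence, 160 lost the call, 5 gained one and 5 called values turned. Those that turned were Slc40a1 (-1.43 against macrophage and B lineage barcodes, -0.72 with fewer than 500 genes), Pcna (-0.12 at 50% haemoglobin, -0.076 with fewer than 500 genes) and Meg3 (0.22 against macrophage and B lineage barcodes). Malat1, which was not called, came to 0.21 against those barcodes. The cause was not tested. At a median of 162 remaining UMIs per cell, a gene missing from a cell says little, and decreases of genes under about 50 CPM could not be sized.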
